A study of Mus musculus with 6 samples.

Results

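The genes of intestinal fat absorption, chylomicron assembly and fatty acid oxidation were followed through 6 RNA-seq libraries of mouse intestine. The set was a list of 33 gene symbols, from apolipoproteins to oxidation enzymes, chosen by name and not by a threshold on the values. All 33 were found among 32219 genes in the deposited table, and all 33 passed the filter on low values. The 6 libraries comprised 3 labelled WT and 3 labelled KO. The design text names the whole duodenum as the material, and the cell type label lists epithelial cells of the intestine, immune cells and neurons of the gut wall. The deleted gene, any Cre driver, the strain, age and sex of the animals and whether each library came from its own animal are not stated in the labels, so the deletion could not be checked in the libraries and all p-values measure the spread between libraries, which may be technical.

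Dietary fat is hydrolysed in the gut lumen, and enterocytes take up the fatty acids, monoacylglycerol and cholesterol through the brush border. Inside the cell, fatty acids are bound by small carrier proteins, activated to acyl-CoA and esterified again to triglyceride on the endoplasmic reticulum. Triglyceride and cholesteryl ester are then loaded onto apolipoprotein B by the microsomal transfer protein and leave the cell as chylomicrons, while a part of the fatty acids is burned in mitochondria and peroxisomes. The nuclear receptor PPAR alpha, which fatty acids activate, controls many of the oxidation genes and several of the uptake genes.

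Values are given as deposited, on a log scale taken as log2(abundance + 1). The base is not stated; if it were the natural logarithm, every fold below would be larger by a factor of 1.44. The abundance unit is not stated either, so levels were compared between libraries and not between genes. The library KO 1 has no values on chromosomes 2 to 9, X and M and beyond Tmem258 on chromosome 19, and its zeros there were treated as missing. It covers 13 of the 33 lipid genes, and its values for these are given after division by 2.12 on the linear scale. The other 5 libraries listed between 22061 and 22768 genes above 0, and the depth of all libraries is unknown. These 5 libraries were high in the ileal bile acid binding protein Fabp6 (8.16 to 8.76) and low in the proximal factor Gata4 (0.43 to 0.63), and KO 1 was the reverse (3.91 and 5.19). Against the mean of the 5, KO 1 had a median of 3.19 over 5 covered proximal markers and of -4.01 over 3 distal ones. Not every marker followed. Proximal Slc40a1 was lower in KO 1 (5.15, against 6.30 to 6.67), and distal Slc51a was only slightly lower (6.54, against 6.86 to 7.21). Both were named after their values were seen. KO 1 was also low in the smooth muscle gene Myh11 (3.80, against 7.34 to 7.82). The 5 libraries thus carry distal markers that do not match the duodenum of the design text, and KO 1 differs from them in gut segment markers and in muscle content. In whole tissue, fewer cells of a type and less RNA per cell cannot be told apart.

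Promoter sequence is shown for the transcription factor gene Creb3l3, which stood far apart in KO 1 and KO 3, for the cholesterol importer gene Npc1l1, high in the same libraries, and for Acadm, the lipid gene with the smallest p without KO 1. Each run is the 250 bases before the RefSeq start on GRCm38.p6, read 5′ to 3′ on the gene's own strand, and capitals mark the nuclear receptor core motif AGGTCA or its reverse complement TGACCT. The windows are chr10:81098873-81099122 (minus strand) for Creb3l3, chr11:6230246-6230495 (minus strand) for Npc1l1 and chr3:153944644-153944893 (minus strand) for Acadm.
Creb3l3: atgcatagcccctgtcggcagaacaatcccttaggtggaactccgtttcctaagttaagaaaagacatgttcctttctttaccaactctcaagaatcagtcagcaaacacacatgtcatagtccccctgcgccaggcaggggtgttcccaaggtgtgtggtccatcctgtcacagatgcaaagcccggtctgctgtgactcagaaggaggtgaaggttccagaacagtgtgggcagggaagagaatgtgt
Npc1l1: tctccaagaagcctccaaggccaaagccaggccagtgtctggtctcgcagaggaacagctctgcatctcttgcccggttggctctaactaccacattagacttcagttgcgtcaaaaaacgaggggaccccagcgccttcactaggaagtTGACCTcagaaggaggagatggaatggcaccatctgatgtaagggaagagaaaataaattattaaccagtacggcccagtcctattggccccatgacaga
Acadm: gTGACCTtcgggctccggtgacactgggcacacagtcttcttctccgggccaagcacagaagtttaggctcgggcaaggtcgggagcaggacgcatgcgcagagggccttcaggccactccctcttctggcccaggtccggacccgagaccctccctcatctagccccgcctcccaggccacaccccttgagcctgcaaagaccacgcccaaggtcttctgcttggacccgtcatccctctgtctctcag
The Creb3l3 window at this start holds none of the motifs searched. Windows that overlap annotated exons by more than a short stretch were not printed. This left out the other start of Creb3l3, which holds the core motif, and the window of Fabp1. The Npc1l1 window has the core motif on the reverse strand, starting 100 bases before the start site, and the Acadm window has it 249 bases before. RefSeq's table held promoters for 26 of the 33 lipid genes. The core motif lay in 10 of these 26 (Acadm, Acadvl, Apoc2, Cd36, Cpt1a, another start of Creb3l3, Fabp1, Npc1l1, Plin2 and Slc27a2), and in 14.0% of 32851 promoter windows of the same length. The 26 genes had 27 windows, and a gene counted if any of its windows matched, while the background is a share of windows. The direct repeat of this motif with a 1-base spacer (DR1) was in none of the 26 and in 0.0335% of all windows, the HNF4-type site CAAAGTCCA in none and in 0.384%, and the cAMP response element TGACGTCA in none and in 1.55%. The TATA box TATAAA was in 2, Apob and Fabp1, and in 12.4% of all windows. All motifs were searched on both strands, the core motif is part of the direct repeat, and a match describes letters and not a bound site.

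Without KO 1, none of the 33 lipid genes passed the threshold between KO 2 and KO 3 on one side and the 3 WT libraries on the other. The limma test with Benjamini-Hochberg adjustment over 22047 genes gave each an adjusted p of 0.99998; 1 of the 33 had an unadjusted p under 0.05, and 0.00454% of all genes passed. At the unadjusted threshold the background was 2.23% of genes. The log2 fold was above 0 for 25 of the 33 and below 0 for 8, with a median of 0.09, while 61.1% of all genes tested had a fold above 0, with a median of 0.03. Both KO libraries lay above all WT libraries for 3 lipid genes (Slc27a2, Soat2 and Acadm), against 9.82% of all genes, and below all WT libraries for 0, against 3.77%. The count of folds above 0 rests on KO 3: without it, 14 of 33 were above 0, with a median of -0.02.

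**Figure D1:**
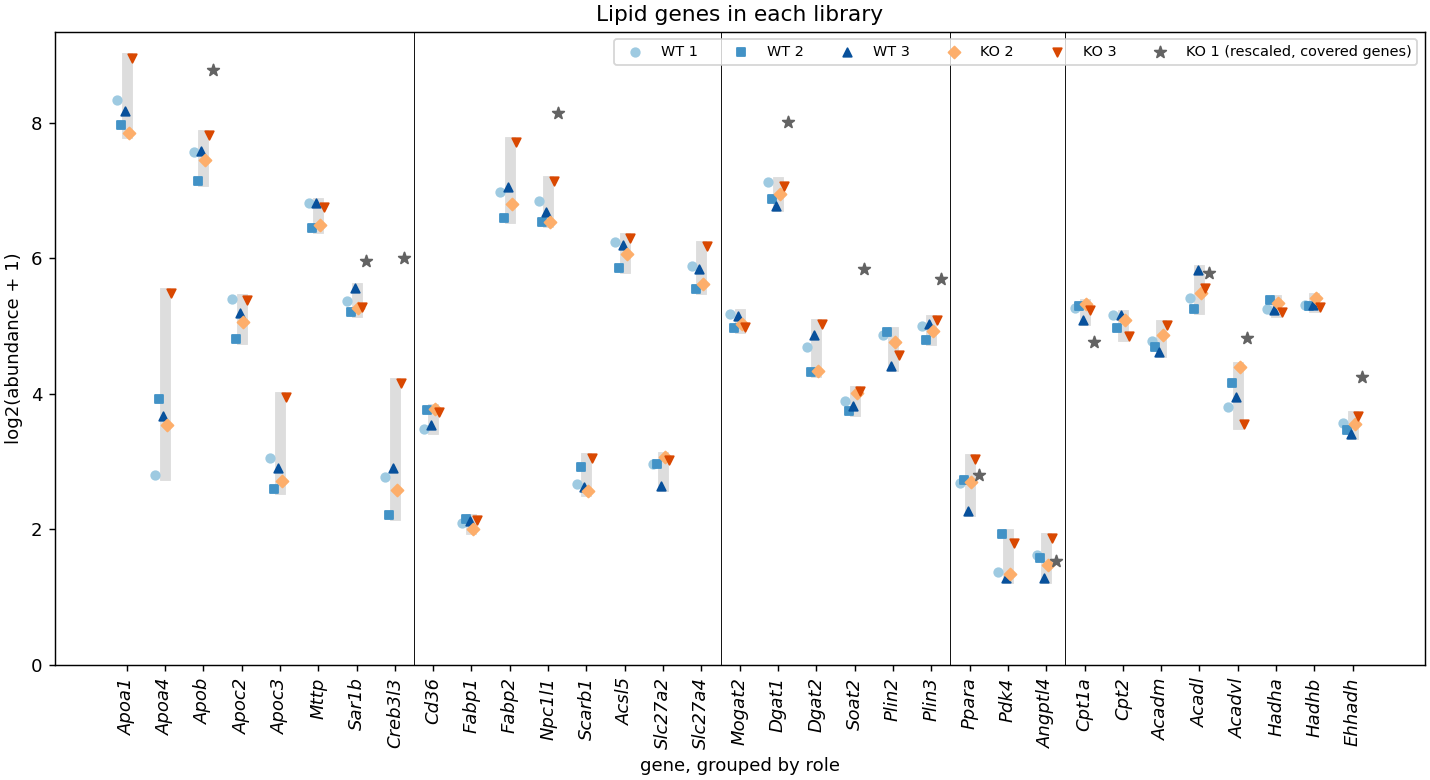
Level of each of the 33 lipid genes, as log2(abundance + 1) on the vertical axis, by gene and grouped by role from apolipoproteins to oxidation enzymes. Points are single libraries, grey bars span the 5 libraries without KO 1, and stars are KO 1 after rescaling where it has values. KO 3 is the highest of the 5 libraries for 17 of 33 genes, against 26.2% of all genes.

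**Figure D2:**
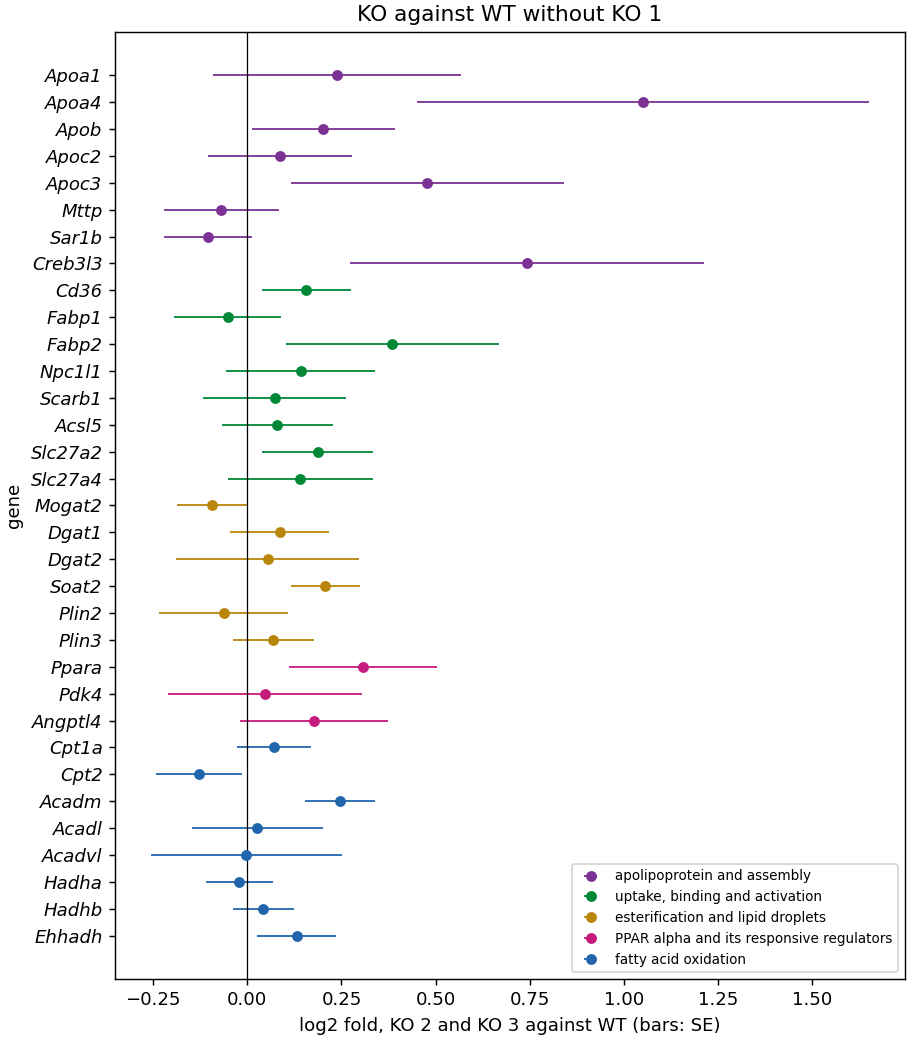
Log2 fold of KO 2 and KO 3 against the 3 WT libraries for each lipid gene, with limma standard errors as bars and colours for roles. Apoa4 has the widest bar (fold 1.05, SE 0.60), and none of the 33 folds passed the test.

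The apolipoproteins and assembly factors varied widely among libraries, and KO 3 was the highest of the 5 libraries in 5 of these 8 genes, against 26.2% of all genes. Apoa4, an apolipoprotein of chylomicrons (chromosome 9, 46240696 to 46243459, plus strand), stood at 2.80, 3.92 and 3.66 in WT 1, 2 and 3, at 3.54 in KO 2 and at 5.49 in KO 3. KO 2 lay within the WT range, and KO 3 lay well above every other library. The limma fold was 1.05 ± 0.60 (SE), and 0.08 without KO 3. Apoc3, an inhibitor of lipoprotein lipase encoded in the same cluster on chromosome 9, stood at 3.05, 2.59 and 2.90 in the WT libraries, at 2.71 in KO 2 and at 3.95 in KO 3 (fold 0.48 ± 0.36). Apoa1, the main protein of high density lipoprotein and the next gene of that cluster, stood at 8.34, 7.97 and 8.17 in the WT libraries, at 7.84 in KO 2 and at 8.95 in KO 3 (fold 0.24 ± 0.33). For Apoc3, KO 2 again lay inside the WT range; for Apoa1 it was the lowest of the 5 libraries and KO 3 the highest, so the KO libraries enclosed WT.

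Creb3l3 encodes CREBH, a membrane-bound transcription factor of liver and small intestine known to activate apolipoprotein genes such as Apoa4 (chromosome 10, 81084324 to 81098874, minus strand). It stood at 2.77, 2.20 and 2.90 in the WT libraries, at 2.57 in KO 2 and at 4.16 in KO 3. KO 1, which covers the gene, stood at 6.01 after rescaling. KO 2 thus did not differ from the WT range, while KO 3 and KO 1 were above all WT libraries. The fold was 0.74 ± 0.47 (SE) without KO 1 and 1.62 ± 0.79 with it (limma adjusted p = 0.99994), and -0.05 without KO 1 and KO 3.

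The structural protein and the export machinery varied less among the 5 libraries other than KO 1. Apob, the scaffold of the chylomicron, stood at 7.56, 7.14 and 7.58 in the WT libraries, at 7.44 in KO 2 and at 7.82 in KO 3 (fold 0.20 ± 0.19), and at 8.78 in KO 1. Apoc2, the activator of lipoprotein lipase, stood at 5.40, 4.81 and 5.20 in the WT libraries, at 5.06 in KO 2 and at 5.38 in KO 3 (0.09 ± 0.19). For Apob, KO 3 and KO 1 were above every WT library and KO 2 inside their range, and for Apoc2 both KO libraries were inside it. Mttp, the transfer protein that loads lipid onto Apob, had values from 6.45 to 6.82 over the 5 libraries (fold -0.07 ± 0.15), and Sar1b, the small GTPase of the vesicles that carry chylomicrons, from 5.21 to 5.56 (-0.10 ± 0.12), with KO 1 above them at 5.96. Apoc2 shares exon sequence with a readthrough gene on its own strand, and exons of Apoa4 and Mttp overlap genes on the opposite strand, so reads of these could be assigned to more than 1 gene.

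Among the uptake, binding and activation genes, 7 of 8 had a fold above 0, against 61.1% of all genes, and none passed. Fabp2, the intestinal fatty acid binding protein, stood at 6.98, 6.59 and 7.05 in the WT libraries, at 6.80 in KO 2 and at 7.71 in KO 3 (fold 0.39 ± 0.28). KO 3 was again above every WT library and KO 2 inside their range, and without KO 3 the fold was -0.07. Fabp1, the liver-type binding protein that enterocytes also make, was nearly level, at 2.10, 2.15 and 2.12 in the WT libraries, at 2.01 in KO 2 and at 2.14 in KO 3 (-0.05 ± 0.14). The related carrier genes therefore differed in how far KO 3 departed from WT, by 0.84 for Fabp2 and 0.01 for Fabp1.

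Npc1l1, the cholesterol importer of the brush border, stood at 6.85, 6.54 and 6.69 in the WT libraries, at 6.53 in KO 2 and at 7.14 in KO 3 (0.14 ± 0.20), and at 8.15 in KO 1. Slc27a4, a fatty acid transport protein, stood at 5.88, 5.54 and 5.84 in the WT libraries, at 5.61 in KO 2 and at 6.18 in KO 3 (0.14 ± 0.19). In both, KO 3 was the highest of the 5 libraries, and KO 2 was at or near the lowest WT value. Slc27a2, a fatty acid transporter with acyl-CoA synthetase activity, was the uptake gene whose groups did not overlap, at 2.96, 2.97 and 2.64 in the WT libraries, at 3.07 in KO 2 and at 3.02 in KO 3 (0.19 ± 0.15). Cd36, a fatty acid receptor (3.48 to 3.78 over the 5 libraries), Scarb1, a lipoprotein receptor (2.57 to 3.05), and Acsl5, an acyl-CoA synthetase (5.86 to 6.30), had folds of 0.16, 0.07 and 0.08. Exons of Acsl5 and Slc27a2 overlap genes on the opposite strand.

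Of the 6 esterification and lipid droplet genes, none passed. KO 1 was above all 5 other libraries in the 3 that it covers, against 18.3% of all covered genes. Soat2, which makes cholesteryl ester for chylomicrons (chromosome 15, 102150526 to 102163469, plus strand), stood at 3.89, 3.74 and 3.82 in the WT libraries, at 4.01 in KO 2 and at 4.03 in KO 3, so that both were above all WT libraries by a small margin. Its fold was 0.21 ± 0.09 (SE), without passing, and KO 1 stood at 5.84. Dgat2, a triglyceride synthesis enzyme, stood at 4.69, 4.33 and 4.86 in the WT libraries, at 4.33 in KO 2 and at 5.03 in KO 3 (0.05 ± 0.24), so KO 3 was the highest of the 5 and KO 2 was just above WT 2, the lowest. Dgat1, the other enzyme of that last step, had values from 6.77 to 7.12 over the 5 libraries (0.09 ± 0.13) and stood at 8.02 in KO 1. Mogat2, which starts triglyceride synthesis from monoacylglycerol, ranged from 4.97 to 5.18 (-0.09 ± 0.09), and the droplet coat proteins Plin2 and Plin3 from 4.41 to 4.91 (-0.06 ± 0.17) and 4.80 to 5.09 (0.07 ± 0.11), with Plin3 at 5.69 in KO 1. Exons of Mogat2 overlap a gene on the opposite strand.

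Ppara and the regulators that respond to it had folds above 0 without passing, as had 61.1% of all genes tested a fold above 0. Ppara, the receptor gene, stood at 2.68, 2.72 and 2.28 in the WT libraries, at 2.70 in KO 2 and at 3.03 in KO 3 (0.31 ± 0.20). Pdk4, a kinase that restrains glucose oxidation, stood at 1.36, 1.92 and 1.27 in the WT libraries, at 1.34 in KO 2 and at 1.79 in KO 3 (0.05 ± 0.26). Angptl4, a secreted inhibitor of lipoprotein lipase, stood at 1.61, 1.58 and 1.28 in the WT libraries, at 1.47 in KO 2 and at 1.87 in KO 3 (0.18 ± 0.20). The groups overlapped in all 3 genes, and WT 3 was the lowest library in each.

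Among 8 fatty acid oxidation enzymes, 5 had a fold above 0 and 3 below, with a median of 0.03, while 61.1% of all genes were above 0. Acadm, the medium-chain acyl-CoA dehydrogenase (chromosome 3, 153922357 to 153944632, minus strand), stood at 4.77, 4.68 and 4.62 in the WT libraries, at 4.86 in KO 2 and at 5.02 in KO 3. Both KO libraries were above all WT libraries, and the fold was 0.25 ± 0.09 (SE, limma unadjusted p = 0.0390, adjusted p = 0.99998). Its fold was between 0.17 and 0.32 when any of the 5 libraries was left out. Acadvl, the very-long-chain enzyme, showed the widest gap between the KO libraries in the other direction, at 3.80, 4.16 and 3.95 in the WT libraries, at 4.39 in KO 2, at 3.55 in KO 3 and at 4.83 in KO 1. KO 2 and KO 1 were above and KO 3 below every WT library, and without KO 1 the fold was near 0 with an SE of 0.25. Exons of Acadvl overlap Dvl2 on the opposite strand. Acadl, the long-chain enzyme, ranged from 5.25 to 5.83 with both extremes in WT (0.03 ± 0.17).

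The remaining oxidation genes varied little among the 5 libraries other than KO 1. Hadhb, the beta subunit of the mitochondrial trifunctional protein, stood at 5.31, 5.29 and 5.31 in the WT libraries, at 5.41 in KO 2 and at 5.28 in KO 3 (0.04 ± 0.08). Its alpha subunit Hadha ranged from 5.21 to 5.38 over the 5 libraries (-0.02 ± 0.09). The carnitine palmitoyltransferases Cpt1a and Cpt2, which bring fatty acids into mitochondria, ranged from 5.08 to 5.33 (0.07 ± 0.10) and from 4.85 to 5.17 (-0.13 ± 0.11). Ehhadh, the bifunctional enzyme of peroxisomes, ranged from 3.41 to 3.67 (0.13 ± 0.10), with KO 1 at 4.25. In none of these genes did KO 2 and KO 3 both leave the WT range on the same side. Exons of Hadha overlap Garem2 on the opposite strand.

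Genes of the same pathways outside the set were examined through lists made by role, with earlier results of these data known. Of 46 other genes of lipid uptake, resynthesis and export that were tested, 28 had a fold above 0 and 18 below (median 0.02), 0 passed by limma and 1 had an unadjusted p under 0.05. Those with the smallest p were Pnpla2, the triglyceride lipase of droplets (0.31), Lpin1, a phosphatidate phosphatase (0.24), Acsl3, an acyl-CoA synthetase (0.26), and Mia2, an export factor of the endoplasmic reticulum (0.16). Of 56 other oxidation and PPAR target genes, 42 had a fold above 0 and 14 below (median 0.05), 0 passed and 0 had an unadjusted p under 0.05. Among those with the smallest p were Eci2, an enoyl-CoA isomerase (0.17), Acox2, a peroxisomal oxidase (0.49), and Eci3 (-0.19). Both medians lie close to the median of 0.03 over all genes. Of all genes tested, 61.1% had a fold above 0 and 2.23% an unadjusted p under 0.05 by limma.

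The KO libraries differed from each other in many of these genes. KO 3 was the highest of the 5 libraries for 17 of the 33, against 26.2% of all genes. KO 3 lay above all WT libraries for 18 of the 33 lipid genes, against 30.1% of all genes, and KO 2 for 7, against 28.6%; KO 2 lay below all WT libraries for 4, against 15.2%. KO 3 lay below all WT libraries for 4, against 18.8%, all of them oxidation enzymes (Cpt2, Acadvl, Hadha and Hadhb). At genes with a mean of 1 or more, KO 3 was at least 0.5 above the WT mean for 2.42% of all genes and for 5 of the 33 lipid genes: Apoa4 (by 2.02), Creb3l3 (1.54), Apoc3 (1.10), Fabp2 (0.84) and Apoa1 (0.79). KO 2 reached that margin for 0 of the 33, against 2.84% of all genes. By role, the median difference of KO 3 from the WT mean was 0.59 for apolipoproteins and assembly, 0.26 for uptake and activation, 0.15 for esterification and droplets, 0.38 for Ppara and its responsive regulators and 0.00 for oxidation, against 0.02 over all genes tested. For KO 2 the same medians were -0.10, -0.09, 0.01, -0.02 and 0.09, against 0.03. No test can be made of a single library, so these counts and medians are descriptions.

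**Figure D3:**
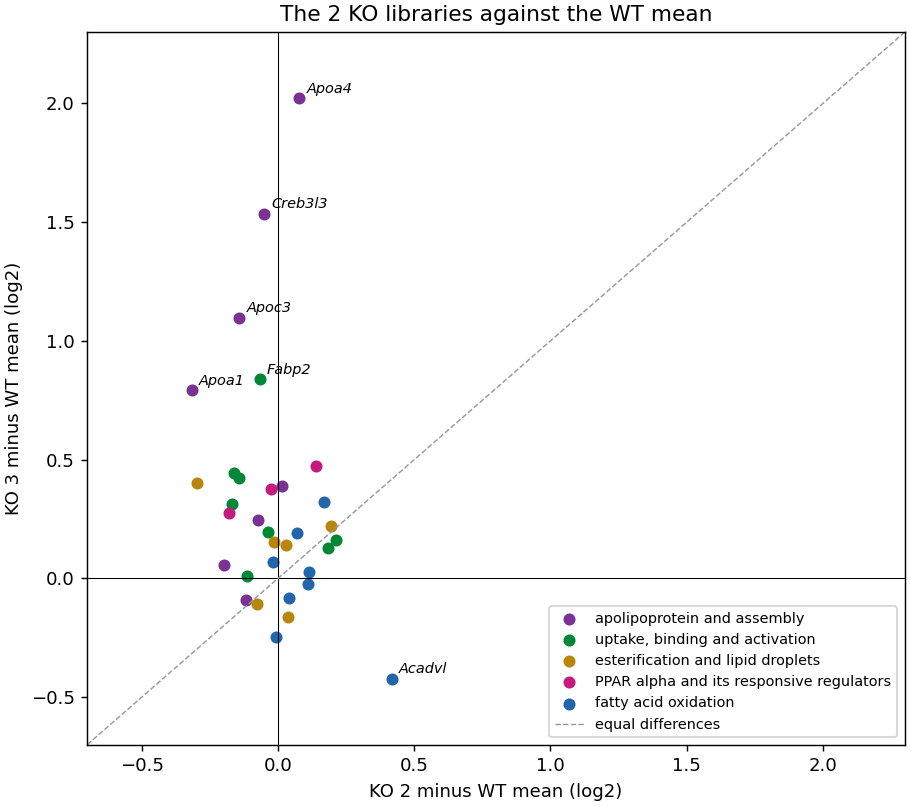
Difference of KO 2 (horizontal axis) and of KO 3 (vertical axis) from the WT mean in log2 units, with 1 point per lipid gene coloured by role and a dashed line where both are equal. Apoa4, Creb3l3, Apoc3, Fabp2 and Apoa1 lie near 0 or below it for KO 2 and at 0.79 to 2.02 for KO 3, and Acadvl lies at 0.42 and -0.42.

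Other cell type markers were measured beside this pattern. A list of 20 enterocyte genes with no role in lipid handling had its highest value in KO 3 for 11, against 26.2% of all genes, and in WT 1 for 6. Its summed linear levels were 3504, 2724 and 3148 in WT 1, 2 and 3, 2960 in KO 2 and 3552 in KO 3. Against the mean of the 5 libraries, its median in KO 3 was 0.19, and that of the 33 lipid genes was 0.14. A rise of this size in KO 3 was thus not particular to the lipid genes, while the 8 apolipoprotein and assembly genes stood at 0.50. The sum of 10 adipocyte markers was 128 in WT 3 and 134 in KO 3, against 38.1 to 63.1 in the other 3, with Adipoq at 2.97 and 2.75 in these libraries. The sum of 9 macrophage markers was lowest in KO 3 (61.1, against 67.7 to 113 in WT). That of 8 smooth muscle markers was highest in KO 3 (1541, against 1108 to 1482 in WT and 1150 in KO 2), though WT 2 was the highest library for 5 of these 8. Of 8 hepatocyte markers, Alb was at 0 to 0.34, Ttr at 0.99 to 1.35 and Apoh at 0.36 to 0.67, while Cps1, a urea cycle enzyme that enterocytes also make, was at 7.03 to 7.18. Of 8 acinar markers of the pancreas, Cpa1 was at 0 in all 5 libraries, Pnlip at 0 to 0.10 and Cpb1 at 0.15 to 0.51, while Clps, the cofactor of pancreatic lipase, was at 4.25 to 4.88. Cps1 and Clps were named after their values were seen. The summed linear level of the hepatocyte list was 135 to 144 over the WT libraries, 132 in KO 3 and 148 in KO 2. That of the acinar list was 20.2 to 29.1 over the WT libraries, 18.4 in KO 3 and 28.6 in KO 2. These sums rest almost wholly on Cps1 and on Clps, so they cannot compare liver or pancreas content between libraries. The distal and proximal segment lists had medians of 0.06 and 0.03 in KO 3 against the mean of the 5 libraries. The part of epithelial, fat or muscle content in the KO 3 values was not tested.

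**Figure D4:**
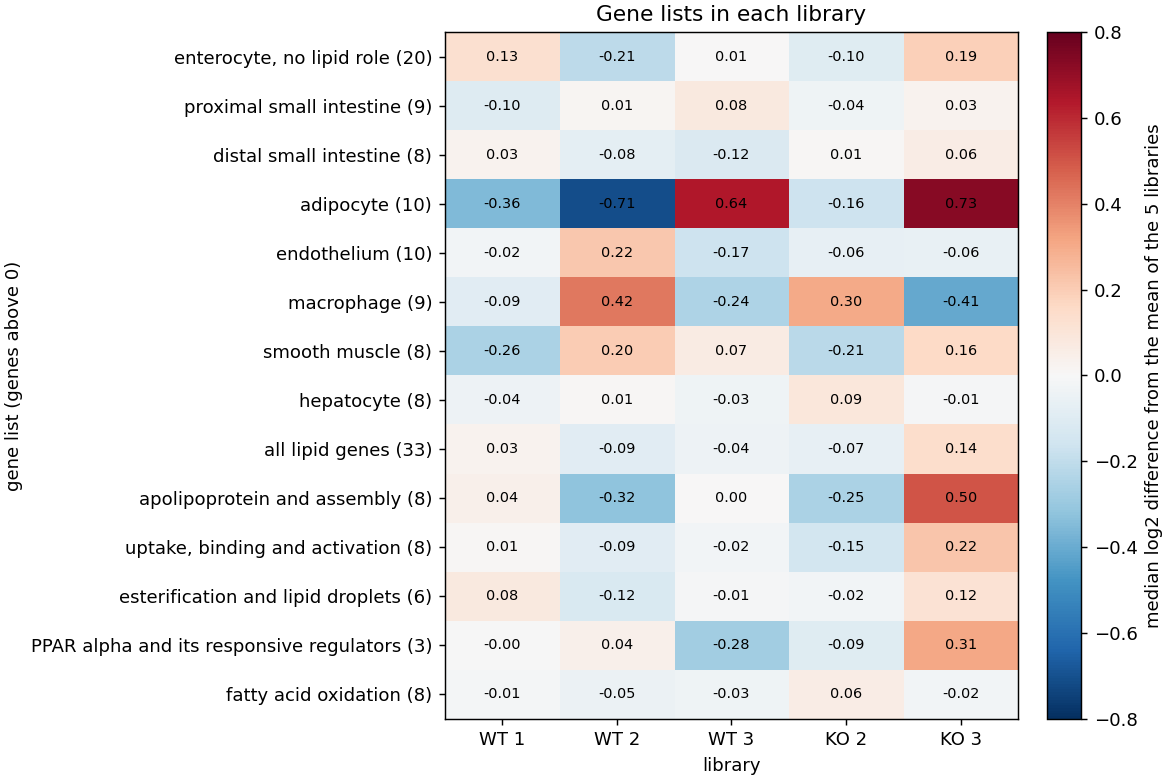
Median log2 difference of each gene list from the mean of the 5 libraries, by library in columns, for marker lists and for the lipid genes in all and by role, with the number of genes above 0 in brackets. KO 3 stands at 0.14 for all lipid genes, at 0.50 for apolipoproteins and assembly, at -0.02 for oxidation and at 0.19 for enterocyte genes. The adipocyte list is high in WT 3 (0.64) and KO 3 (0.73).

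KO 1 held 13 of the lipid genes, and most of these were above the other libraries after rescaling. Their median difference from the mean of the 5 others was 0.73, against -0.08 over all covered genes. For 8 covered enterocyte genes with no lipid role it was 0.66, so a rise of this size was not particular to the lipid genes. KO 1 was above all 5 others for 9 of 13, inside their range for 3 (Ppara, Angptl4 and Acadl) and below for 1 (Cpt1a), while over all covered genes 18.3% were above and 39.2% below. It was at least 1 log2 unit above the mean of the 5 for 5 of 13, against 1.92% of covered genes at 1 or more. Creb3l3 was 3.08 above that mean, Soat2 1.94, Npc1l1 1.40, Apob 1.27 and Dgat1 1.06. Of these, Apob acts in chylomicron assembly, Npc1l1 in cholesterol uptake and Soat2 and Dgat1 in esterification, while Creb3l3 encodes a transcription factor. Acadvl (0.85), Plin3 (0.73), Ehhadh (0.72) and Sar1b (0.63) followed, and Cpt1a was 0.48 lower, at 4.76 against 5.08 to 5.33.

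With KO 1 rescaled, 12 of the 13 covered genes had a limma fold above 0, with a median of 0.30, against 48.9% of 10071 covered genes, whose median was close to 0. None passed (adjusted p = 0.99994 for each), and 0 of 13 had an unadjusted p under 0.05, against 2.37% of covered genes; 0 covered genes passed (0.0%). All 3 KO libraries were above all WT libraries for 1 of the 13, Soat2, against 3.6% of covered genes, and below them for 0, against 2.69%. The folds were 0.81 ± 0.48 (SE) for Soat2, 0.59 ± 0.34 for Apob, 0.58 ± 0.38 for Npc1l1 and 0.42 ± 0.29 for Dgat1. The median fold of the 13 was 0.13 when KO 1 was left out. Beside these values, KO 1 had Lct, the lactase of the proximal intestine, at 7.05 against 1.08 to 2.01, the enterocyte gene Alpi at 7.57 against 5.66 to 6.49, and Adipoq at 0, so genotype, gut segment and tissue content of this library cannot be told apart.

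**Figure D5:**
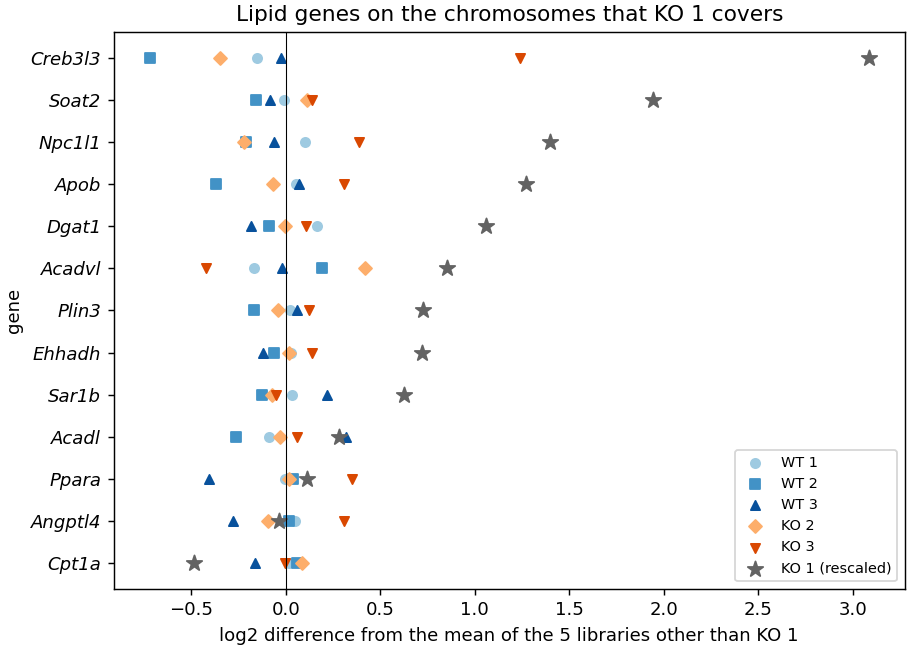
Log2 difference from the mean of the 5 libraries other than KO 1 (horizontal axis) for the 13 lipid genes that KO 1 covers, with 1 symbol per library and a star for KO 1 after rescaling. The stars of Creb3l3, Soat2, Npc1l1, Apob and Dgat1 lie at 1.06 to 3.08, beyond every other library, and Cpt1a lies at -0.48.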

How the data were processed

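Polyadenylated RNA of 6 libraries (3 WT, 3 KO) was measured by RNA-seq. The authors deposited 1 table of log values, treated here as log2(abundance + 1). The build is mm10, per the submitters' processing notes. Aligner, counter, strand setting, abundance unit and log base: not given in the sources used here. Depth is unknown. Of 32245 rows, 26 held a date in place of a symbol and were dropped. GENCODE vM21, on the same assembly, placed 31398 symbols. KO 1 was set to missing where it has no values, and its linear values elsewhere were scaled down by 2.12. This factor is the median, across 2160 covered genes with a log2 mean of at least 4, of its value relative to the average library. Genes above 0 in at least 3 libraries were tested with limma 3.58.1 in R 4.3.3 (variance trend, 2-sided, group as the only term, Benjamini-Hochberg over all genes tested, threshold 0.05). For weakly expressed genes the added 1 compresses the fold. The test was tried on simulated data. The lipid genes, lists and tests were chosen with earlier results of these data known. All 33 lipid genes were named, and of each pathway list the 4 genes with the smallest p. One of the latter is not reported here. Of marker lists, the first 3 genes could be named, and exceptions are stated where they occur. The promoters shown were chosen after the values were seen. Alternatives covered left-out libraries, the replicate block, scaling, filters, added constants, variance models and the threshold.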

Additional observations from a re-analysis of the deposited data

How the results depend on the processing

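The count of lipid genes past the threshold was 0 without KO 1 and 0 with KO 1 rescaled under each alternative run. Of 33 lipid genes, 14 to 26 had a fold above 0 when each library was left out (median fold -0.017 to 0.20), with the lowest value without KO 3; a lone KO library is then assumed to vary like the others. The median of the 13 covered genes was 0.13 to 0.45 over left-out libraries and 0.65 with KO 1 as deposited, where its raised scale enters the fold. Over left-out libraries the fold passed through 0 for 20 lipid genes, of which 17 turned without KO 3: Apoa1 -0.32 to 0.79, Apoc2 -0.075 to 0.25, Apoc3 -0.14 to 1.10, Mttp -0.20 to 0.058, Creb3l3 -0.049 to 1.54, Fabp1 -0.11 to 0.012, Fabp2 -0.067 to 0.84, Npc1l1 -0.16 to 0.45, Scarb1 -0.17 to 0.31, Acsl5 -0.042 to 0.20, Slc27a4 -0.14 to 0.42, Dgat2 -0.30 to 0.40, Plin2 -0.22 to 0.039, Plin3 -0.013 to 0.15, Pdk4 -0.18 to 0.27, Angptl4 -0.024 to 0.38, Acadl -0.10 to 0.19, Acadvl -0.42 to 0.42, Hadha -0.083 to 0.042 and Hadhb -0.025 to 0.11. With KO 1 rescaled it did so for Sar1b -0.10 to 0.25, Cpt1a -0.21 to 0.071, Acadl -0.011 to 0.28 and Acadvl -0.0021 to 0.64. Single settings also turned folds close to 0. These were Dgat2 (-0.0032), Pdk4 (-0.010), Acadl (-0.030) and Hadhb (-0.015) with median centring, and Acadvl (0.0070) with an added constant of 5. With KO 1 added, Sar1b (0.12), Cpt1a (-0.10), Acadvl (0.28) and Eci3 (0.33) turned, and with KO 1 as deposited Cpt1a did (0.25); the cause was not tested. With the replicate number as a block, 0 lipid genes passed in either fit, 24 of 33 folds were above 0 (median 0.15), and Plin2 (0.0076), Pdk4 (-0.031) and Acadl (-0.012) turned. Departures from the group mean correlated within numbers 1, 2 and 3 at 0.26, 0.53 and 0.057 over 6450 covered genes. The KO mean used here includes KO 1, whose gut segment markers differ, so these correlations cannot decide on pairing. The libraries share a number without being shown to be paired. Unknown depth leaves the counting error of weakly expressed genes such as Pdk4, Angptl4 and Fabp1 without a value.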

Other observations

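KO 1 also stood apart in other lipid genes on the chromosomes that it covers. Of 15 genes of lipid uptake, resynthesis and export outside the set that were tested there, its rescaled value lay above all 5 other libraries for 10 and below for 2, and of 21 oxidation and PPAR target genes for 11 and 5. Over all covered genes, 18.3% were above and 39.2% below. The median difference from the mean of the 5 was 0.31 and 0.21 for these lists. It was 0.66 for 8 covered enterocyte genes with no lipid role. The genes given here were chosen after their values were seen. Acot12, an acetyl-CoA hydrolase, was at 2.20 in KO 1 against 0.08 to 0.22 elsewhere, and Vnn1, a pantetheinase and PPAR alpha target, at 5.85 against 4.03 to 4.73. Abcg5 and Abcg8, the paired transporters that return sterols to the lumen, were at 6.63 against 5.60 to 5.87 and at 5.46 against 4.37 to 4.75. Acaca, the first enzyme of fatty acid synthesis, was lower in KO 1, at 3.58 against 4.08 to 4.30. These values come from 1 library, whose segment markers differ from those of the others, and have no replicate check.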
